A study of Mus musculus with 22 samples.

Results

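Foxp3 binding was compared between IkE5 and WT regulatory T cells (Treg cells) of the mouse, using 4 chromatin immunoprecipitation sequencing (ChIP-seq) peak lists. These were the lists IkE5 1, IkE5 2, WT 1 and WT 2, 4 of 22 samples in the series and 4 of 18 with a peak list. Peaks that overlapped by 1 bp or more in any of the 4 lists were joined into 1 region, and each region was classed by the lists that held a peak there. The 76018 peaks gave 34646 regions. An "IkE5 only" region had a peak in both IkE5 lists and in neither WT list, and a "WT only" region the reverse.

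Foxp3 is the forkhead transcription factor that defines Treg cells, which restrain immune responses to self. It binds DNA together with partners such as Runx1 and NFAT, and much of its binding lies at enhancers that other T cells also open. Ikaros, encoded by Ikzf1, is a zinc-finger transcription factor of lymphocytes that can recruit corepressor complexes, and the study's title names it as a partner of Foxp3.

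The IkE5 cells carried the genotype given as IkE5-deletion and the WT cells the genotype WT. What the deletion removes, what drives it, the age of the mice and how many mice were pooled are not given in the sources used here. Both genotypes were primary Treg cells from spleen and lymph nodes, stimulated for 1 h with a cell stimulation cocktail. For the transcription factors the cells were fixed for 30 min in 1% formaldehyde. The same cells were profiled for p300, a histone acetyltransferase found at active enhancers, for NFAT1, a transcription factor that enters the nucleus after calcium signals, and for H3K27ac, the acetylated histone mark of active enhancers and promoters. Ikaros was mapped in WT cells. Each of these targets has 2 lists per genotype, apart from Ikaros with 2 WT lists. Nothing in the labels says that the lists of a genotype came from separate mice, so the spread between them may be technical. The lists hold positions with no signal, score or read depth, so a missing peak cannot be told apart from a peak below the caller's threshold, and binding in fewer cells cannot be told apart from weaker binding in each.

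The labelled cell type was checked with H3K27ac in gene bodies. All 8 Treg markers and all 7 T cell markers had an H3K27ac region in every one of the 4 H3K27ac lists. Of 8 B cell markers 5 had one in each list, of 8 myeloid markers 5, 5, 5 and 3, and of 8 CD8 T and NK markers 3, 2, 4 and 3, in the order IkE5 1, IkE5 2, WT 1, WT 2. Foxp3 peaks lay in 6, 5, 6 and 5 of the 8 Treg marker genes in the same order, and in 6, 5, 6 and 5 of the 7 T cell marker genes. They also lay in 2, 1, 3 and 2 of the B cell, 3, 2, 3 and 2 of the myeloid and 0, 1, 0 and 2 of the CD8 T and NK markers. The part of other cells in the results was not tested.

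Among the genes of the lists described further on, 234 had a promoter sequence, taken as 250 bases before and 50 after a start site (RefSeq, GRCm38.p6, the assembly of mm10). Of these, Cxcr3 and Ifit1 had a promoter under an IkE5 only region, Rasgrp1 and Rpl13a had one under a WT only region, and 43 had one under a region found in all 4 lists. Among all 27025 genes with a promoter sequence the numbers were 179, 190 and 3647. The promoters of Cxcr3, Ifit1 and Rasgrp1 are shown as examples with Foxp3 peaks in 1 genotype only, and those of Entpd1 and Tigit as examples held by every list. Capitals mark matches on either strand to any of 6 short motifs: forkhead TGTTTAC, Ikaros TGGGAA, NFAT GGAAA, Runx TGTGGT, AP-1 TGANTCA and ETS GGAAG. The Ikaros motif can overlap the NFAT and ETS motifs. Cxcr3 lies on the minus strand at chrX:101734098-101734397, Ifit1 on the plus strand at chr19:34640639-34640938, Rasgrp1 on the minus strand at chr2:117342828-117343127, Entpd1 on the plus strand at chr19:40612116-40612415 and Tigit on the minus strand at chr16:43664135-43664434.
Cxcr3 promoter, IkE5 only: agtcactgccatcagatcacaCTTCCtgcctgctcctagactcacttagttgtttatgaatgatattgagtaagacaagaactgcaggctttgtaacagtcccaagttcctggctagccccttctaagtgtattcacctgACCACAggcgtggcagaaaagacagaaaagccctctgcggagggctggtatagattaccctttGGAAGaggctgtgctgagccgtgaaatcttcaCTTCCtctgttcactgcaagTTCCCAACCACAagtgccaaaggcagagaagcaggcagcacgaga
Ifit1 promoter, IkE5 only: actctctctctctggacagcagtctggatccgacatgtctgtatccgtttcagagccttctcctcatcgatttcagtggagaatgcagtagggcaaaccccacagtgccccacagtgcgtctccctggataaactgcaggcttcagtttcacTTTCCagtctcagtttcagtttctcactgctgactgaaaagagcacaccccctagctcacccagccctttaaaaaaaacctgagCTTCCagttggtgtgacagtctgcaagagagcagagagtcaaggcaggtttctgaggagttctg
Rasgrp1 promoter, WT only: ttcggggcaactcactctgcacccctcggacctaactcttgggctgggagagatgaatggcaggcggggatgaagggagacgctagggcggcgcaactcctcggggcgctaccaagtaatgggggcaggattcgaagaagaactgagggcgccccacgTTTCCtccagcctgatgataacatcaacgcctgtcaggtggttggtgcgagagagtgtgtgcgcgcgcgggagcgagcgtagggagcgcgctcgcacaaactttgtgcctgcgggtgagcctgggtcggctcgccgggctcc
Entpd1 promoter, all 4 lists: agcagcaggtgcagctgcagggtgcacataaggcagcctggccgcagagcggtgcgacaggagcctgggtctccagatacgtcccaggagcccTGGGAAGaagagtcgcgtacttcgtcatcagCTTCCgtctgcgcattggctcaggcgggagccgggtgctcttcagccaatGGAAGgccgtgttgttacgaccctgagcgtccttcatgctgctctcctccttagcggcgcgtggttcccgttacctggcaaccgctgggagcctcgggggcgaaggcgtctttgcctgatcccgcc
Tigit promoter, all 4 lists: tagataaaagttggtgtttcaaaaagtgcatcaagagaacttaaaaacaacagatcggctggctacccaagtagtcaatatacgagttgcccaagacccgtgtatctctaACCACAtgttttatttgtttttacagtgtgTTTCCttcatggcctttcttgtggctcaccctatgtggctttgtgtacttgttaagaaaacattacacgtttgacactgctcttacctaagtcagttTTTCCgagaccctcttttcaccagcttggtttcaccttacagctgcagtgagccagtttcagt

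Cxcr3 encodes a chemokine receptor of T helper 1 type cells, and its promoter held 1 Ikaros motif directly next to a Runx motif (TTCCCAACCACA), a second Runx motif and 3 ETS motifs. Ifit1, an interferon-induced gene, held 1 NFAT and 1 ETS motif, and Rasgrp1, which activates Ras behind the T cell receptor, held 1 NFAT motif. Entpd1, the ectonucleotidase CD39 of Treg cells, held 1 Ikaros and 3 ETS motifs, and Tigit, a co-inhibitory receptor, held 2 NFAT motifs and 1 Runx motif. The Rpl13a promoter, WT only and not shown, held 1 Ikaros, 2 NFAT and 1 ETS motif. Another Entpd1 promoter, at chr19:40659520-40659819, was under no Foxp3 region and held 0 Ikaros, 2 NFAT, 1 Runx and 4 ETS motifs. None of the 5 promoters shown held the forkhead or the AP-1 motif. These are matches of letters in this window and say nothing of the factor's presence.

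The 2 genotypes had about as many Foxp3 peaks. The IkE5 lists held 21619 and 17265 peaks and the WT lists 20608 and 16526. The means were 19442 ± 3079 in IkE5 and 18567 ± 2886 in WT (SD, n = 2 each), a ratio of 1.05, and the larger list of each genotype was number 1. The exact 2-sided permutation test gave p = 0.667, and with 2 lists against 2 its smallest possible p is 0.333. The ratio fell below 1 without IkE5 1 (0.930) or without WT 2 (0.943). No pair of lists was a copy: at most 0.471% of intervals were identical in any of the 6 pairs.

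Most Foxp3 sites found in both lists of a genotype were also found in the other genotype. Of the 11314 regions in both IkE5 lists, 90.1% had a peak in at least 1 WT list and 68.9% in both. Of the 10987 regions in both WT lists, 92.3% had a peak in at least 1 IkE5 list and 71.0% in both. Over all regions, 7799 (22.5%) were in all 4 lists, 1117 (3.22%) were IkE5 only and 847 (2.44%) were WT only. Thus 9.87% of the regions in both IkE5 lists had no WT peak, and 7.71% of those in both WT lists had no IkE5 peak. With a single list standing for a genotype more regions fell into each class. The IkE5 only count was then 3888 without IkE5 1, 5988 without IkE5 2, 2600 without WT 1 and 2029 without WT 2. The WT only count was 1817, 2234, 3744 and 4394 in the same order.

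Differences between the numbered lists were more frequent than differences between the genotypes. Regions in list 1 of both genotypes and in neither list 2 numbered 4048 (11.7%), and regions in list 2 of both genotypes and in neither list 1 numbered 1299 (3.75%). Each exceeded the IkE5 only and the WT only count. A further 13942 regions (40.2%) were in a single list: 4823 in IkE5 1, 2738 in IkE5 2, 3503 in WT 1 and 2878 in WT 2. The combinations crossing genotype and number were the rarest, with 381 regions in IkE5 1 and WT 2 and 474 in IkE5 2 and WT 1. The labels do not say what the shared list number stands for.

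**Figure D1:**
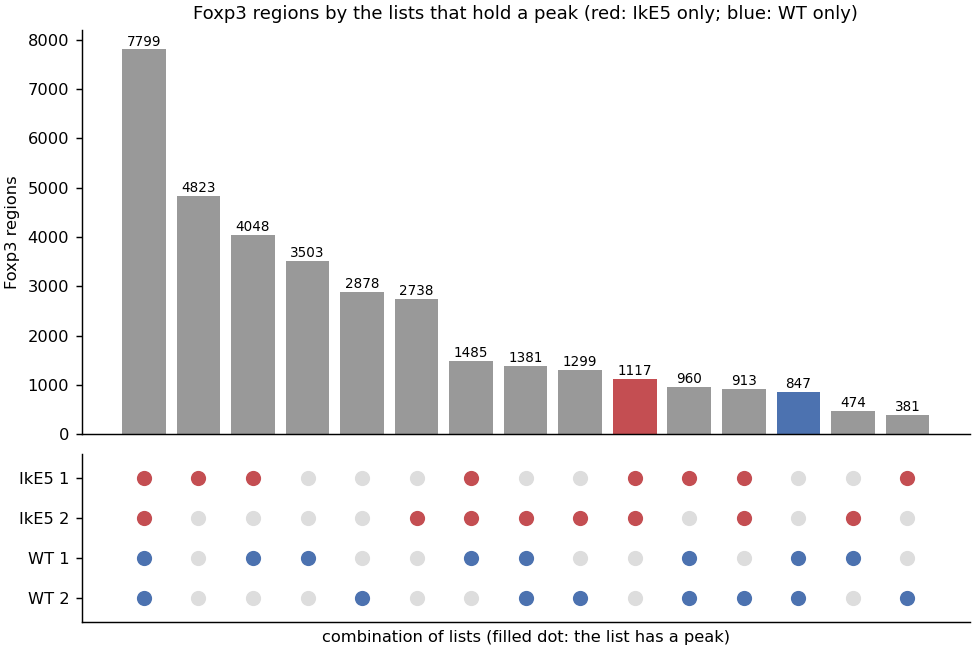
Number of Foxp3 regions (bars) for each of the 15 combinations of lists, with filled dots below naming the lists that hold a peak. The 1117 IkE5 only and 847 WT only regions stand below the 4048 regions held by list 1 of both genotypes, and 7799 regions are in all 4 lists.

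The overlap between lists showed the same order. IkE5 1 shared 52.2% of its peaks with IkE5 2, and 66.0% with WT 1. IkE5 2 shared 65.1% with IkE5 1, and 65.9% with WT 2. For WT 1 the shares were 53.0% with WT 2, and 69.3% with IkE5 1, and for WT 2 they were 66.0% with WT 1, and 68.9% with IkE5 2. Every list therefore overlapped most with the list of the same number in the other genotype. Peak positions followed list number 1 as well: over 7600 regions with 1 peak in each list, the median distance between centres was 45 bp for the lists numbered 1 and 62 bp for those numbered 2. It was 70 bp for the IkE5 pair and 59 bp for the WT pair.

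**Figure D2:**
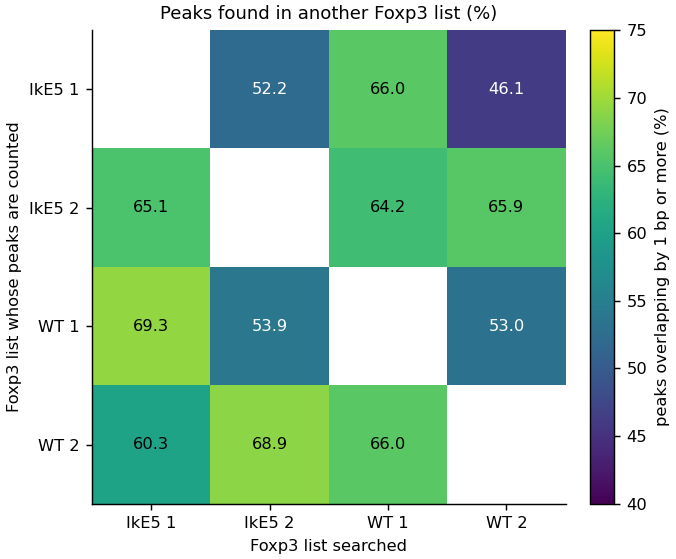
Percent of the peaks of each Foxp3 list (rows) that overlap a peak of another list (columns) by 1 bp or more. The highest share in each row is with the list of the same number in the other genotype, from 65.9% for IkE5 2 to 69.3% for WT 1.

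The surroundings of Foxp3 peaks were compared list by list. Ikaros regions held by both WT lists covered 52.2% and 65.8% of the Foxp3 peaks in IkE5, against 61.0% and 67.5% in WT, a difference of -5.26 percentage points (exact permutation p = 0.667). The groups overlapped, and the sign turned without IkE5 1. Regions of p300 from the same genotype covered 28.5% and 24.9% of the peaks in IkE5 and 32.1% and 27.7% in WT (-3.22 points, exact permutation p = 0.667). H3K27ac covered 75.1% and 78.2% in IkE5 and 76.1% and 80.4% in WT (-1.55 points). For 33.6% and 42.2% of the IkE5 peaks, against 36.0% and 43.2% of the WT peaks, an end of a gene lay within 2 kb (-1.71 points). For the last pair of measures too the values of the genotypes overlapped. Within each list number the IkE5 value was below the WT value for every measure of this paragraph. With 2 pairs a paired permutation test could give no p below 0.5.

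NFAT1 alone showed no overlap between the genotypes. NFAT1 regions of the same genotype covered 11.4% and 8.16% of the Foxp3 peaks in IkE5, against 23.9% and 18.8% in WT. The means were 9.76 ± 2.27% and 21.4 ± 3.61% (SD, n = 2 each), a difference of -11.6 points. The lists did not overlap, and the exact permutation p was 0.333, the smallest this design allows. The NFAT1 lists themselves were shorter in IkE5, with 4908 and 3435 peaks against 7825 and 6850 in WT. With the WT NFAT1 regions used for both genotypes the difference was -1.57 points (exact permutation p = 0.667).

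Regions found in 1 genotype were poorer in the other targets than regions in all 4 lists, and carried p300 and NFAT1 more often in their own genotype. Of the IkE5 only regions, 32.3% and 23.8% had a p300 peak in the 2 IkE5 lists, and 5.28% and 4.21% in the 2 WT lists. Of the WT only regions, 10.4% and 5.08% had one in IkE5, and 28.6% and 17.0% in WT. Of the regions in all 4 lists, 62.3% and 49.4% had p300 in IkE5, and 67.1% and 56.9% in WT. For NFAT1 the shares were 9.58% and 4.66% in IkE5 and 4.12% and 2.24% in WT at the IkE5 only regions. At the WT only regions they were 1.30% and 0.826% in IkE5 and 16.5% and 11.1% in WT. At regions in all 4 lists they were 22.1% and 15.3% in IkE5 and 44.4% and 39.8% in WT.

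H3K27ac was broader and less tied to the genotype. At the IkE5 only regions H3K27ac was present at 75.3% and 75.7% in IkE5, and at 65.4% and 53.4% in WT. At the WT only regions it was present at 71.5% and 74.6% in IkE5, and at 86.2% and 82.6% in WT. In both classes the 2 lists of the genotype with Foxp3 peaks were above the other 2. At regions in all 4 lists the shares lay between 93.5% and 95.7%.

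**Figure D3:**
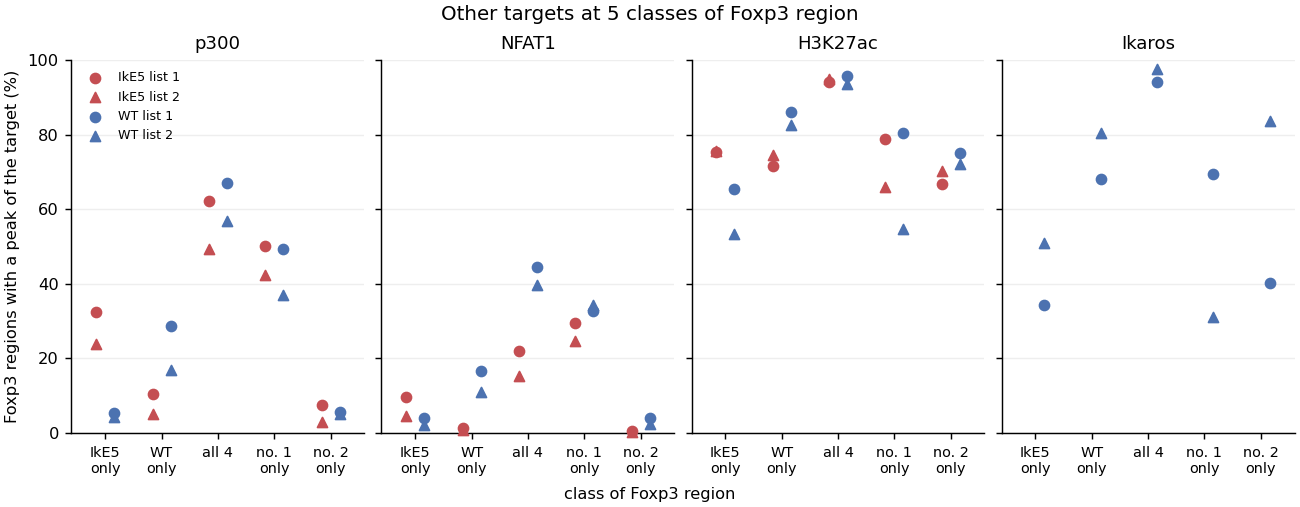
Percent of Foxp3 regions (y axis, linear) that overlap a peak of p300, NFAT1, H3K27ac or Ikaros in each list, for 5 classes of region. Red points are IkE5 lists and blue points WT lists, circles are list 1 and triangles list 2, and no. 1 only and no. 2 only are regions held by that list of both genotypes alone. At the IkE5 only regions p300 stands at 32.3% and 23.8% in IkE5 and at 5.28% and 4.21% in WT, and at the WT only regions the order is turned.

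Levels of p300 also differed between the classes defined by list number. Regions in list 1 of both genotypes had p300 at 50.1% and 42.4% in IkE5 and 49.2% and 36.9% in WT, although list 2 of neither genotype held a Foxp3 peak. Regions in list 2 of both genotypes had p300 at 7.47% and 2.93% in IkE5 and 5.62% and 5.08% in WT.

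Ikaros, mapped in WT cells alone, was found more often at the sites that both WT lists held and both IkE5 lists lacked. The classes themselves differ by definition in whether WT cells had a Foxp3 peak. Of the IkE5 only regions, 34.4% overlapped an Ikaros peak in the WT 1 list, 51.0% in the WT 2 list and 27.1% in both. Of the WT only regions, 68.2% did so in the WT 1 list, 80.5% in the WT 2 list and 60.6% in both. For regions in all 4 lists the share in both Ikaros lists was 92.2%, and over all regions it was 44.3%. This order did not hold in every setting. Within list number 1, Ikaros in both lists covered 18.7% of the regions with an IkE5 but no WT peak and 42.1% of those with a WT but no IkE5 peak. Within number 2 the shares were 34.7% and 36.0%. When 1 WT Foxp3 list was left out the order turned. The IkE5 only share was then 50.1% (without WT 1) and 43.0% (without WT 2), and the WT only share 26.5% and 28.3%. The classes change with the lists. Without WT 1, the IkE5 only class takes in 1485 regions that hold a WT 1 peak, 67.3% of them with Ikaros in both lists. The WT only class takes in 2878 regions otherwise held by WT 2 alone, with 16.5%. With 1 IkE5 list left out the order held and the gap was wider. The share is also tied to the list number: at regions held by list 1 of both genotypes Ikaros covered 69.4% in its WT 1 list and 31.1% in its WT 2 list, and at regions held by list 2 of both genotypes 40.2% and 83.7%.

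Sites of 1 genotype for p300, NFAT1 and H3K27ac were set beside those of Foxp3. Regions of p300 found in both IkE5 lists and no WT list covered 157 of the 1117 IkE5 only Foxp3 regions (14.1%) and 4 of the 847 WT only regions, against 3.07% of all Foxp3 regions. Those 157 were 14.1% of the 1115 such p300 regions too. Regions of p300 found only in WT covered 3 of the IkE5 only and 61 of the WT only Foxp3 regions (7.2%), against 2.91% of all. NFAT1 regions found only in IkE5 covered 28 of the IkE5 only Foxp3 regions (2.51%) and 0 of the 847 WT only regions, against 1.06% of all. NFAT1 regions found only in WT covered 8 of the IkE5 only (0.716%) and 61 of the WT only Foxp3 regions (7.2%), against 5.87% of all and 14.1% of the regions in all 4 lists. For the WT only regions this share was near that of all regions. Of the 2152 NFAT1 regions found only in WT, 1095 (50.9%) were at regions with Foxp3 in all 4 lists. The share was much the same for NFAT1 regions held by all 4 NFAT1 lists, 961 of 1939 (49.6%). H3K27ac regions found only in IkE5 covered 113 of the IkE5 only Foxp3 regions (10.1%) and 4 of the WT only regions, against 2.31% of all. H3K27ac regions found only in WT covered 20 of the IkE5 only and 47 of the WT only Foxp3 regions (5.55%), against 2.05% of all.

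At 49 IkE5 only Foxp3 regions, 2 or more of p300, NFAT1 and H3K27ac were also found in both IkE5 lists and in no WT list. Of these 49, p300 was among the targets at 47, H3K27ac at 40 and NFAT1 at 18, and 17 lay in or within 10 kb of a gene. Outside genes and their 10 kb lay 26.6% of all IkE5 only, 19.8% of all WT only and 23.9% of all Foxp3 regions. Ikaros was in both WT lists at 5 of the 49 and in neither WT list at 32. At 24 WT only regions, 2 or more of the 3 targets were found in both WT lists and no IkE5 list. There p300 was among them at 22, NFAT1 at 23 and H3K27ac at 4, and 15 lay in or within 10 kb of a gene. Ikaros was in both WT lists at 20 of the 24 and in neither at 1. Over all IkE5 only regions Ikaros was in both WT lists at 27.1%, and over all WT only regions at 60.6%. Since Ikaros was mapped in WT cells alone, the 49 sites were chosen to lack peaks, and the 24 to hold them, in the cells of the Ikaros map. The part of that choice in the Ikaros counts was not tested. No test over regions was made. The IkE5 count was 131 without IkE5 2 and 81 without WT 1, and the WT count was 42 without IkE5 1, 50 without IkE5 2 and 81 without WT 2.

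Foxp3, p300, NFAT1 and H3K27ac all appeared together in IkE5 at 7 regions. Genes are named by position and need not be the targets of a site. A region lay at chr11:54271371-54272091, 4.09 kb beyond the higher end of Il3, the gene of the growth factor interleukin 3. Another lay inside Vdr, the vitamin D receptor, at chr15:97892252-97892906. The others were inside Aplp2 (chr9:31204695-31205240) and Cep112 (chr11:108584724-108585353), and 24.6 kb from Lpgat1, 84 kb from Slc38a6 and 117 kb from Mmadhc. None of the 7 had an Ikaros peak in either WT list, beside 34.4% (WT 1) and 51.0% (WT 2) of all IkE5 only regions. Ikaros was mapped in WT cells alone, where these sites were chosen to lack the other targets. The part of that choice in the Ikaros result was not tested. At Il3, Foxp3 peaks in the gene and 10 kb on each side numbered 1 and 1 in IkE5 and 0 and 0 in WT, and at Vdr 2 and 3 in IkE5 and 1 and 1 in WT.

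Examples of other IkE5 only sites with p300 follow, picked for the known roles of the genes near them. Sites with p300 and H3K27ac in IkE5 alone also lay 99.3 kb from Acsl4, 136 kb from Adamts18 and 29.5 kb from Ankrd55. Whether such sites favour any kind of gene was not tested. A region 31.0 kb beyond the higher end of Il2, at chr3:37156951-37157471, had p300 and H3K27ac in both IkE5 lists and neither WT list, and Ikaros in both WT lists. Regions of the same kind, with p300 and H3K27ac in IkE5 alone, lay 25.8 kb from Socs3, an inhibitor of cytokine signalling, 34.6 kb from Nfkbiz, a nuclear regulator of NF-kB, and 64 kb from Maf, a transcription factor of Il10 and Il4 expression. A region inside S100a4, in a cluster of calcium-binding protein genes (chr3:90604360-90604902), had p300 and NFAT1 in IkE5 alone and H3K27ac in both IkE5 lists and WT 1. So did a region 8.98 kb beyond Ifitm6 (chr7:141025874-141026476), of the interferon-induced membrane proteins, which had Ikaros in both WT lists. A region 7.13 kb below Ccrl2 and 4.43 kb beyond Ltf (chr9:111047200-111047699) had p300 and H3K27ac in IkE5 alone.

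Of the WT only regions, several had p300 and NFAT1 in both WT lists and neither IkE5 list while H3K27ac was in all 4 lists. At Smad3, a signal transducer of TGF-beta, such a region at chr9:63737375-63738070 had Ikaros in both WT lists. The same held for regions inside Pank3, Sec24c, Pfdn4 and Rftn2, for a region inside Lamtor2, and for a region 163 kb from Jun, the AP-1 subunit. At Zfpm1, which encodes the GATA cofactor Fog1, such a region had no Ikaros peak. A region 36.6 kb below Id3, an inhibitor of E proteins, at chr4:136106634-136107201 had NFAT1 and H3K27ac in WT alone and p300 in all 4 lists. Only the region nearest to Pom121l12, 456 kb away, had all 3 targets in WT alone. Beside the Smad3 region both IkE5 lists held a Foxp3 peak. It lay 0.63 to 1.128 kb from the region's centre in IkE5 1 and 0.532 to 1.032 kb in IkE5 2. The WT peaks of the region ended at 0.152 kb (WT 1) and 0.348 kb (WT 2). Peaks of p300 and NFAT1 lay at the neighbouring site in both IkE5 lists too, so the WT only class there rests on a short distance.

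**Figure D4:**
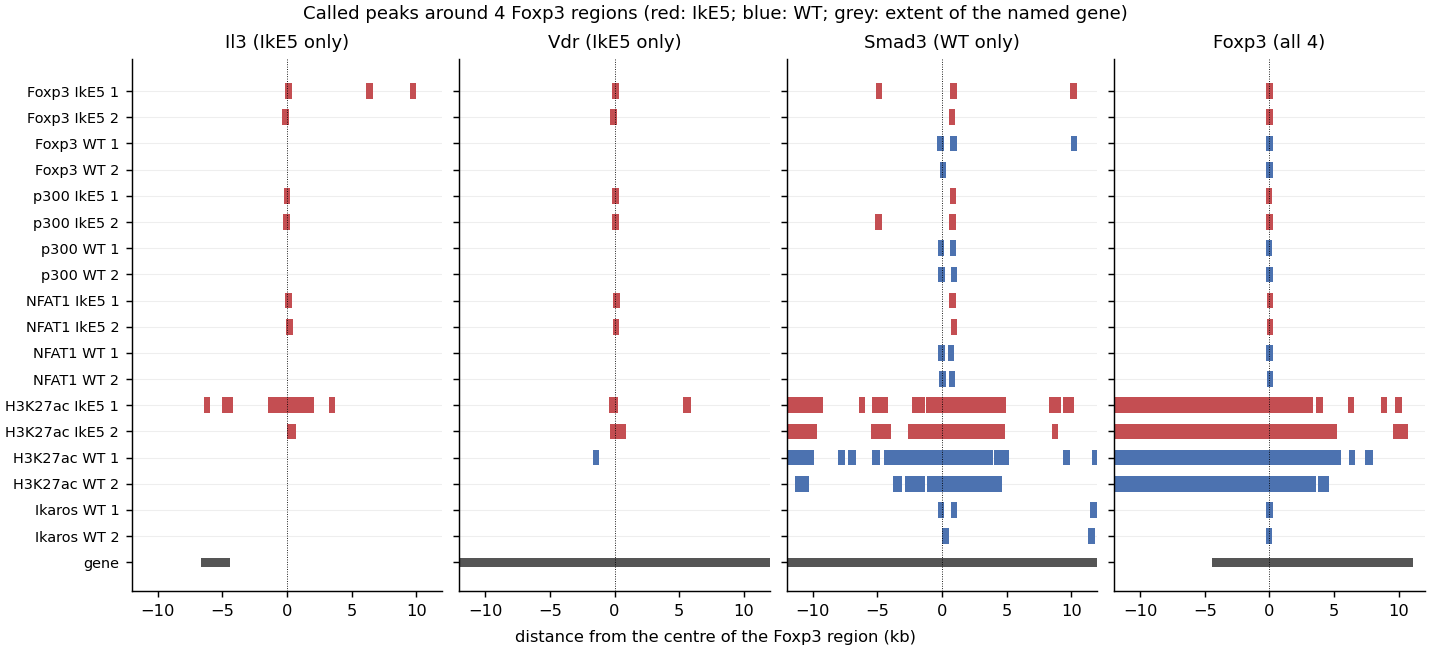
Called peaks within 12 kb of the centres of 4 Foxp3 regions, with distance in kb on the x axis and 1 row per list, IkE5 in red and WT in blue, and the extent of the named gene in grey. At Il3 and Vdr peaks of Foxp3, p300, NFAT1 and H3K27ac coincide in both IkE5 lists alone. At Smad3 p300 and NFAT1 coincide in both WT lists, with IkE5 peaks of Foxp3, p300 and NFAT1 close beside them. The region inside Foxp3 is held by every list.

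At 4 genes that mark Treg cells no Foxp3 region was IkE5 only or WT only. Foxp3 itself had 2 and 2 peaks in IkE5 and 2 and 1 in WT, and the region inside the gene at chrX:7583874-7584397 was in all 4 lists, while that at chrX:7570708-7571248 was missing from WT 2. Il2ra, the high-affinity interleukin 2 receptor chain, had 4 and 2 peaks in IkE5 and 4 and 2 in WT, with regions in all 4 lists at chr2:11636042-11636572 and chr2:11653182-11653772. Ctla4, the inhibitory receptor that competes for CD28 ligands, had 2 and 0 peaks in IkE5 and 3 and 1 in WT, and no region in all 4 lists. Ikzf2, encoding the Ikaros relative Helios, had 12 and 3 in IkE5 and 9 and 4 in WT, and 2 of its 15 regions were in all 4 lists. At Il2ra, Ctla4 and Ikzf2 the lists of a genotype differed more than lists of the same number did.

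Ikzf1, the gene of Ikaros, had 8 and 5 Foxp3 peaks in IkE5 and 7 and 5 in WT, and 5 of its 8 regions were in all 4 lists. It is the gene named in the study's title, and no Foxp3 region there was IkE5 only or WT only. Peak positions do not check the deletion.

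Few cytokine genes had a region in all 4 lists. Il2 had 4 and 0 peaks in IkE5 and 1 and 1 in WT, and the region at its start (chr3:37125902-37126556) was in every list but IkE5 2. Ifng had 2 and 0 in IkE5 and 1 and 0 in WT. Il10, the suppressive cytokine, had 2 and 2 in IkE5 and 1 and 0 in WT, and its region at chr1:131022493-131023143, inside the gene, was IkE5 only with H3K27ac in all 4 lists. Of the 19 effector cytokine genes with any region, Il3 was the single gene with an IkE5 only region and Tnfsf11, the ligand RANKL, the single gene with a WT only one (1 and 0 peaks in IkE5, 2 and 2 in WT). Each kind was thus 5.26% of the 19, beside 7.25% and 6.31% of all genes. Only 3 (15.8%) had a region in all 4 lists, against 54.2% of all genes with a Foxp3 region.

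Over the whole genome, 13812 genes had a Foxp3 region in the gene or within 10 kb. Of these, 1001 (7.25%) had an IkE5 only region, 871 (6.31%) a WT only region, 78 both and 7485 (54.2%) a region in all 4 lists. The 17 lists of T cell genes held 310 genes, of which 308 matched and 291 had a region. Among the 291, 28 had an IkE5 only region and 27 a WT only region. With 0 to 4 genes of each kind per list, the counts are read as descriptions. The median over all 13812 genes was 2 Foxp3 regions per gene. Their regions numbered 35705, of which 1074 were IkE5 only and 912 WT only, a region near more than 1 gene being counted at each. A gene with more regions has more places for a region of 1 genotype.

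Among 30 Treg signature genes, 2 (6.67%) had an IkE5 only region and 3 (10.0%) a WT only region, beside 7.25% and 6.31% of all genes. A region in all 4 lists was found at 19 (63.3%), beside 54.2% of all genes. The IkE5 only ones were Il10 and Il1rl1, the interleukin 33 receptor ST2 of tissue Treg cells (8 and 3 peaks in IkE5, 5 and 2 in WT). Its region at chr1:40437211-40437791 had p300 in both IkE5 lists and neither WT list. The WT only ones were Klrg1, a receptor of mature Treg cells, Il10ra, and Prdm1, which encodes Blimp1 (4 and 3 peaks in IkE5, 6 and 4 in WT). Co-inhibitory genes were close to the overall share in both directions, with Btla IkE5 only and Pdcd1lg2 WT only among 18, and 14 (77.8%) had a region in all 4 lists.

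In the T helper 1 list, 3 of 14 genes (21.4%) had an IkE5 only region and 2 (14.3%) a WT only region, beside 7.25% and 6.31% of all genes. By regions these were 3 and 3 of 54, and the median was 3 Foxp3 regions per gene, against 2 over all genes. The IkE5 only genes were Il18rap, a chain of the interleukin 18 receptor, Cxcr3, and Irf1, an interferon response factor. Il18rap had 4 and 3 peaks in IkE5 and 2 and 1 in WT, with p300 at the IkE5 only region in both IkE5 lists and neither WT list. Cxcr3 had 1 and 1 in IkE5 and 0 and 0 in WT, at the promoter shown above (region chrX:101733698-101734298), where H3K27ac was in all 4 lists and Ikaros in neither. Ifngr2 (0 and 0 peaks in IkE5, 1 and 1 in WT) and Stat4, the interleukin 12 signal transducer, had WT only regions. Stat4 had 2 such regions, with 10 and 5 peaks in IkE5 and 10 and 7 in WT. In the list of T helper 2, Th17 and follicular genes, Rora had 2 IkE5 only regions, both with p300 in IkE5 alone, and Bcl6 had 1 WT only region. Each was 5.56% of the 18 genes with a Foxp3 region.

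Interferon-induced genes had 4 of 38 with an IkE5 only region (Ifit1, Oasl1, Gbp7 and Ifitm3) and 1 with a WT only region (Nlrc5, the class I transactivator). Ifitm3 had 2 and 3 peaks in IkE5 and 1 and 1 in WT, and at its IkE5 only region p300 and H3K27ac peaks were in both IkE5 lists and in neither WT list. Ifit1 had 2 and 1 in IkE5 and 0 and 1 in WT over the gene and 10 kb on each side. At the promoter shown above it had 1 and 1 in IkE5 and 0 and 0 in WT, with H3K27ac in all 4 lists. The 4 genes were 10.5% of the 38, and the WT only gene 2.63%, beside 7.25% and 6.31% of all genes.

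Of 28 T cell receptor and calcium signalling genes, 1 (3.57%) had an IkE5 only region and 4 (14.3%) a WT only region, beside 7.25% and 6.31% of all genes. By regions the list held 2 IkE5 only and 5 WT only of 161, beside 1074 and 912 of 35705 over all genes. Its genes had a median of 5 Foxp3 regions, against 2 over all genes, and the difference from other lists was not tested. Vav1, an exchange factor behind the receptor, had 2 IkE5 only regions (4 and 3 peaks in IkE5, 2 and 1 in WT). The WT only genes included Plcg1, Bcl10 and Rasgrp1, which link the receptor to calcium, NF-kB and Ras. Rasgrp1 had 2 such regions, the promoter region at chr2:117342642-117343383 and one at chr2:117313612-117314227, with 4 and 1 peaks in IkE5 and 6 and 3 in WT. H3K27ac was in all 4 lists at both.

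Of 19 genes of naive and quiescent T cells, 4 (21.1%) had an IkE5 only region and 3 (15.8%) a WT only region, beside 7.25% and 6.31% of all genes. Over the list these were 4 IkE5 only and 4 WT only regions of 152, beside 1074 and 912 of 35705 over all genes. The median was 5 Foxp3 regions per gene, against 2 over all genes. Foxp1, a forkhead factor of naive T cells, had the most regions in all 4 lists of any gene, 12, with 29 and 18 peaks in IkE5 and 35 and 23 in WT. It had 1 IkE5 only and 2 WT only regions. Bach2, a repressor of effector genes, had 9 regions in all 4 lists and 1 WT only region, with 22 and 10 peaks in IkE5 and 25 and 12 in WT. Lef1, Satb1 and Il6st had 1 IkE5 only region each, and Tcf7, the partner of Lef1, had 1 WT only region. Lef1 had 9 and 6 peaks in IkE5 and 9 and 6 in WT, and Tcf7 4 and 2 in IkE5 and 4 and 3 in WT.

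Of 22 genes for Ikaros relatives and corepressors, Gatad2a had an IkE5 only region and Ikzf3, Mta3 and Gatad2a WT only ones. These were 4.55% and 13.6% of the 22, beside 7.25% and 6.31% of all genes. Ikzf3 encodes Aiolos, and it had 7 and 4 peaks in IkE5 and 7 and 6 in WT. Mta3 and Gatad2a belong to the NuRD corepressor complex, and Mta3 had 1 and 1 in IkE5 and 3 and 4 in WT. Of 28 genes of Foxp3 and NFAT partners, 4 had IkE5 only regions (Nfatc1, Runx1, Runx2 and Lef1) and 4 WT only regions (Relb, Stat5b, Smad3 and Tcf7). Each kind was 14.3% of the 28, beside 7.25% and 6.31% of all genes. By regions these were 4 and 4 of 173, beside 1074 and 912 of 35705 over all genes. The median was 4 Foxp3 regions per gene, against 2 over all genes. Runx1 had 11 and 11 peaks in IkE5 and 11 and 7 in WT, and Smad3 9 and 3 in IkE5 and 10 and 4 in WT.

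The remaining lists had 0 to 2 genes of each kind. Activation-induced genes had Cd69 and Cd44 with IkE5 only regions among 25 (8.0%) and none with a WT only region. Chemokine receptor and homing genes had Cxcr3 and Itgb7 IkE5 only, and Ccr3 and Cxcr4 WT only, among 20 (10.0% each). Over all genes the shares were 7.25% and 6.31%. The B cell, myeloid, CD8 T and NK, and T cell markers had 1 gene each with such a region: Ebf1 (WT only), Itgam (IkE5 only), Cd8b1 (IkE5 only) and Cd2 (WT only). Of 14 housekeeping genes, Ywhaz and Eef1a1 (14.3%) had an IkE5 only region and Rpl13a (7.14%) a WT only one. Such regions therefore also lay in genes with no T cell role.

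**Figure D5:**
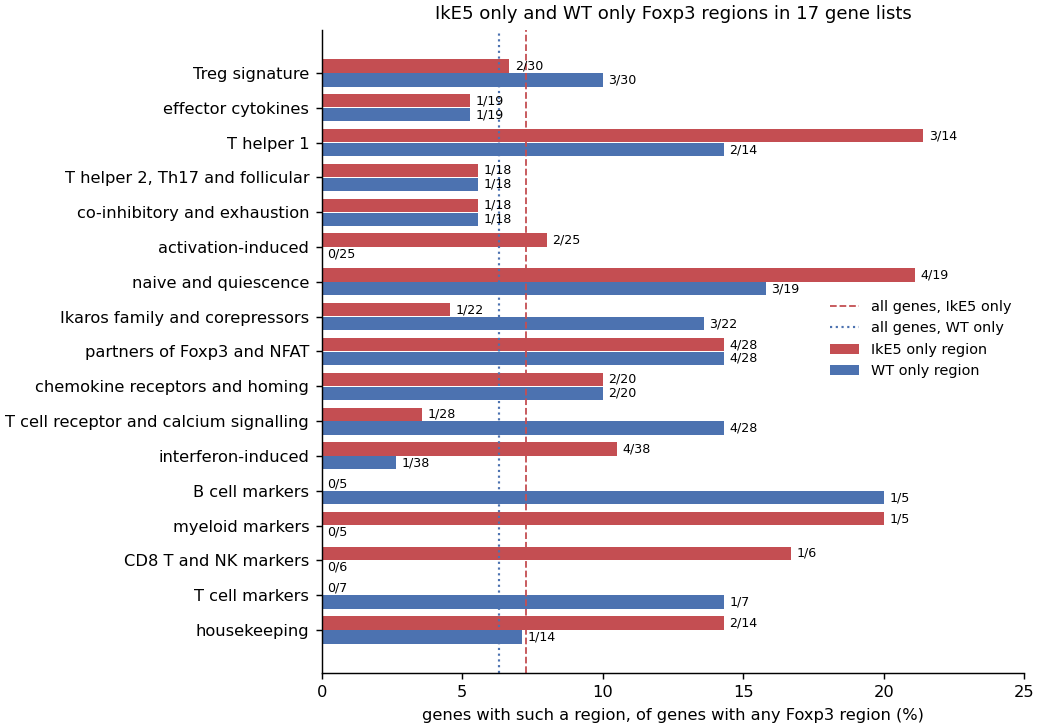
Percent of the genes of each list with a Foxp3 region that have an IkE5 only (red) or WT only (blue) region in the gene or within 10 kb. Bar labels give the genes counted, and the dashed and dotted lines give the shares over all 13812 genes, 7.25% and 6.31%. No list exceeds 4 genes in either direction.

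The genes with the most IkE5 only regions were Atp8b4, Dock9, Pard3, Smap2, Frmd4b, Arid1b and Maml3, with 3 each. Many genes tied at 2, among them Rora and Vav1, and the list is completed, by fewest Foxp3 regions in all and then by symbol, with 2410137M14Rik, Ddb1 and H2-M5. Those with the most WT only regions were Hdac9, Nlk, Iqgap2 and Prkch, with 3 each. Foxp1, Stat4 and Rasgrp1 were among those tied at 2, of which Wdtc1, Abt1, Mpnd, Pdk1, Dnmbp and Focad came next by the same rule. Arid1b also held 2 WT only regions, and Iqgap2 and Maml3 also had 1 of the other kind. Besides Foxp1 (12) and Bach2 (9), the 10 genes with the most regions in all 4 lists were Inpp4b (10), Ext1 (8), Rad51b (8), Hivep2 (7), Cmss1 (7), Tox (7), Tiam1 (6) and Utrn (6). Long genes offer more room for peaks, and counts here are not per length.

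Peak numbers per gene, scaled to list length, were tested with limma on log2(scaled peaks + 1) in 3473 genes with a mean of 2 or more peaks per list. At an adjusted p below 0.05 (Benjamini-Hochberg), 9 genes (0.259%) had more peaks in IkE5 and 6 (0.173%) fewer. At an unadjusted p below 0.05 these were 88 and 119, and the median difference was -0.04. With the list number as a term in the fit, 0 genes were higher and 0 lower (smallest limma adjusted p = 0.263). Pard3, a cell polarity scaffold, had 5 and 6 peaks in IkE5 and 1 and 1 in WT (log2 difference 1.66, SE 0.32, limma adjusted p = 0.00039). Dock9, an exchange factor for Cdc42, had 4 and 5 in IkE5 and 0 and 1 in WT (1.89, SE 0.50, limma adjusted p = 0.0404). Atp8b4, a phospholipid flippase, had 5 and 4 in IkE5 and 1 and 1 in WT. All 3 genes were named for having the most IkE5 only regions, which are counted from the same peaks. The gap between their lists is therefore no further support.

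Of the genes with fewer peaks, Hdac9, a class IIa histone deacetylase known from knockout mice to restrain Treg function, had 1 and 1 peaks in IkE5 and 5 and 5 in WT (log2 difference -1.63, SE 0.32, limma adjusted p = 0.00039). At 2 of its 3 WT only regions no other target had a peak in any list. Nlk, the Nemo-like kinase, had 2 and 1 in IkE5 and 5 and 6 in WT (-1.47, SE 0.34, limma adjusted p = 0.00701). No gene of the 17 lists passed. These calls rest on a spread shared across all genes, since 2 lists per genotype give little of their own. The filter took the mean of all 4 lists. Pard3, Dock9, Atp8b4, Hdac9 and Nlk each averaged below 2 peaks in 1 genotype and passed through the genotype with more. Hdac9 and Nlk were also named for having the most WT only regions, which are counted from the same peaks. Without scaling to list length 49 genes were higher and 48 lower. Leaving out 1 list left 0 to 2 genes higher and 0 to 4 lower, and without the filter on low values limma called none of 13812 genes, with 238 higher and 385 lower at an unadjusted p below 0.05.

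Foxp3 regions in all 4 lists lay nearer to genes than those of 1 genotype. A gene end was within 2 kb of 50.9% of them, against 27.3% of the IkE5 only and 33.1% of the WT only regions and 32.2% of all regions. They were inside a gene in 73.2% of cases, against 62.9% of the IkE5 only and 65.4% of the WT only regions. In the promoter table, with at least 150 of the 300 bases covered, 4043 of 32851 promoters were under a region in all 4 lists. Only 195 (0.594%) were under an IkE5 only region and 205 (0.624%) under a WT only region.

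The motif content of those promoters differed little between the genotypes. The Ikaros motif was in 26.7% of the promoters under IkE5 only regions, 22.0% of those under WT only regions, 22.2% of those under regions in all 4 lists and 25.6% of all promoters. The forkhead motif was in 3.08%, 3.41%, 3.24% and 3.65% in the same order, and the Runx motif in 12.3%, 13.7%, 13.8% and 16.8%. The NFAT motif was in 54.9%, 58.5%, 63.7% and 61.3%, and the ETS motif in 72.8%, 75.6%, 81.4% and 71.4%. The AP-1 motif was in 3.59% and 4.88% of the IkE5 only and WT only promoters and in 7.81% of all. It was in 15.0% of the 233 promoters under regions of list 1 of both genotypes and in 2.95% of the 373 under regions of list 2 of both genotypes. The promoters under Foxp3 regions were richer in G and C, with 62.0% in the IkE5 only, 59.6% in the WT only and 60.4% in the all-list group, against 53.8% over all promoters.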

How the data were processed

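The measurement was ChIP-seq. The deposited peak lists give a chromosome, a start and an end per peak, on mm10, with no signal or score column, as a check of the files showed. FastQC, Bowtie2, MACS2, bedtools and HOMER are named in the submitters' processing notes without their settings. The threshold, the input used and any pooling are not given in the sources used here. All Foxp3 peaks but 1 were 500 bp wide, so a list shows where a peak was called and not how wide it was.

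Samples were grouped by genotype and target from their titles. Peaks were joined where they overlapped by 1 bp or more, and the interval code was checked against bedtools 2.31.1. Regions were given to 21887 protein-coding genes of the RefSeq table (GRCm38.p6) with 10 kb on each side, and that table gives no strand, so gene ends stand for starts and ends. Values per list were compared with exact permutation tests over lists. Peaks per gene were tested with limma 3.58.1 in R 4.3.3, with a pseudocount of 1, genes averaging at least 2 peaks, and a trended prior, and the procedure was tested on simulated data. Regions were not treated as replicates. Named genes were members of the lists with an IkE5 only or WT only region, 8 fixed genes, the 10 genes with most regions of each kind and of those in all 4 lists, and genes at sites shared with 2 or more other targets in the same genotype. Entpd1 and Tigit, as promoters to show, were chosen after their values were seen. The members and gene lists were chosen with earlier results of these data known. The result for 1 gene of the lists is not reported here.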

Additional observations from a re-analysis of the deposited data

How the results depend on the processing

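Joining peaks by 250 bp of overlap, joining peaks 250 bp apart, and using chromosomes 1 to 19 alone moved no count over all regions or all genes by over 1.5 times. Of the IkE5 only and WT only counts of single list genes, 5 moved and 50 did not in each of the 250 bp settings. With chromosomes 1 to 19 alone 1 moved and 54 did not. Genes with an IkE5 only region numbered 363 with gene ends and 2 kb, and 2163 with the gene and 50 kb. Those with a WT only region numbered 344 and 1918. The cause is the width of the window. With start sites of the promoter table in place of gene ends, an alternative chosen after seeing the data like those for Ikaros and for sites shared with other targets, the difference near genes was -1.52 points.

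Leaving out 1 list in turn leaves a genotype with 1 list, or the other with fewer chances to hold a peak. IkE5 only regions then ranged from 2029 to 5988 and WT only regions from 1817 to 4394. Genes ranged from 1990 to 3844 and from 1812 to 3431. Ikaros in both lists ranged from 10.5% to 50.1% of the IkE5 only regions and from 26.5% to 72.7% of the WT only regions. Leaving out a list changes which regions these classes hold. Regions with 2 or more other targets of the same class ranged from 49 to 131 for IkE5 and from 24 to 81 for WT. The peak ratio ranged from 0.930 to 1.18 and turned without IkE5 1 (0.930) and without WT 2 (0.943). The Ikaros difference ranged from -12.1 to 1.56 points and turned without IkE5 1 (1.56). The H3K27ac difference ranged from -3.69 to 0.587 points and turned without WT 2 (0.587). The difference near gene ends ranged from -6.03 to 2.61 points and turned without IkE5 1 (2.61) and without WT 2 (1.86). The cause of these turns was not tested.

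The limma counts were the least stable. They ranged from 0 to 2 higher and 0 to 4 lower when 1 list was left out, where a lone list is assumed to vary like the others. Without scaling they were 49 higher and 48 lower. Without the filter they were 0 and 0 (238 and 385 at an unadjusted p below 0.05). The replicate block, with the list number as a term, also gave 0 and 0 (132 and 192 at an unadjusted p below 0.05). The numbers pair the lists only by label: deviations of list 1 from its genotype's mean correlated at 0.384 between the genotypes over 3473 genes, which are not replicates, and with 2 pairs no value could pass a paired permutation test (smallest p 0.5). The block leaves counts of regions as they are. Read depth is not known from a list of positions, so a peak near the threshold cannot be told from none.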
